A study of Mus musculus with 6 samples.

Results

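Slfn2, Lyl1, Selplg, Cd200r4 and Casp1 are genes known from leukocytes, measured here in primary mouse embryonic fibroblast cultures that differ in exon 2 of Cas (p130Cas, a docking protein of integrin adhesions). They were picked because both arrays of homozygous cultures lay above the other 4 arrays, so that order is how they were chosen and not a finding. They are 5 of the 18193 genes named on the arrays, and each has 1 probe set, the short probes that together report one transcript. What was examined is how the 5 genes vary between cultures of the same genotype, between heterozygotes and wild type, and along the macrophage markers Cd68 and Csf1r.

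The cultures came from B6 embryos of crosses between heterozygotes, taken at 12.5 days post coitum, and the strain is given for 5 of the 6 arrays. There were 2 embryos of each genotype: homozygous for the exon 2 deletion (Cas exon 2 ∆/∆), heterozygous (+/∆) and wild type (+/+). Per the labels, heads and inner organs were removed before the cells were isolated, 2 µg of total RNA was labelled for each Affymetrix array, and they mention no purification of a cell type. With 2 arrays a genotype the precision is low, and the p-values measure the spread between these embryos and their cultures.

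Embryonic connective tissue contains macrophages as well as fibroblasts, and both attach to culture plastic. Macrophages carry the receptor Csf1r, which binds their growth factor, and the endosomal glycoprotein Cd68. The 5 genes have different places in blood cells. Slfn2 belongs to the schlafen family and is needed for the quiescence and survival of mouse lymphoid and myeloid cells. Lyl1 is a basic helix-loop-helix transcription factor of blood stem and progenitor cells, related to Tal1. Selplg encodes PSGL-1, the glycoprotein by which leukocytes roll on selectins. Cd200r4 is an activating member of the CD200 receptor family of mouse myeloid cells and signals through the adaptor Tyrobp. Casp1 is the inflammasome protease that matures interleukin-1β and interleukin-18.

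RefSeq promoter sequences (GRCm38.p6, 250 bases before to 50 after the start of the gene) were found for 4 of the 5 genes, all but Selplg. The letters GAGGAA, the core bound by ETS factors such as the myeloid factor PU.1, were searched on both strands. They occurred once in the Lyl1 promoter and once in the Casp1 promoter. The Slfn2 and Cd200r4 promoters had no match, and 28.3% of 32851 mouse promoters of 300 bases hold one. The 2 promoters with a match are shown, with the match in capitals. It starts 110 bases before the gene's start in Lyl1 and 108 bases before it, on the opposite strand, in Casp1.
Lyl1, chr8:84701207-84701506, + strand: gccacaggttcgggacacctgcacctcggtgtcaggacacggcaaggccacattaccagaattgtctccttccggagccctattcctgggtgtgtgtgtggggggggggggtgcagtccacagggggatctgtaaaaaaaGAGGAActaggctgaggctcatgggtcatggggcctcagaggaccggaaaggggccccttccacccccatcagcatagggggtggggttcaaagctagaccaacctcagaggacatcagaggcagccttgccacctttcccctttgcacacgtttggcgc
Casp1, chr9:5298267-5298566, + strand: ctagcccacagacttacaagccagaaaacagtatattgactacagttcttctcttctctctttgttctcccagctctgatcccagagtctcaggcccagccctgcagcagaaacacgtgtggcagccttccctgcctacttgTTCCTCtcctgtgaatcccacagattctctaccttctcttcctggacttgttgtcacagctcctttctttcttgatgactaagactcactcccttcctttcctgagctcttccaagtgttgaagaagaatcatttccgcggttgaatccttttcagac
The GATA core GATAA was present only in the Cd200r4 promoter among these 4, with 2 matches that start at -41 and 36 relative to the gene's start, and 25.4% of all promoters hold it. The E-box CANNTG, the kind of site that Lyl1 and its partners bind, was present in all 4 and in 72.3% of all promoters. The CANNTG matches do not overlap the GAGGAA matches, and these matches are letters in a window, not measured binding.

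The arrays were of a fibroblast culture with a macrophage component. All 12 fibroblast markers were above the intensity filter, which kept the upper 50% of probe sets by mean log2 intensity over the 6 arrays. Their summed intensity was 77670 to 80217 in homozygotes and 60460 to 86682 on the other 4 arrays. Of 30 macrophage markers, 27 passed the filter, and the list summed to 9574 to 19886 in homozygotes and 4132 to 8819 on the other arrays. The sums are weighted by bright genes such as Lyz2, with 6733 in homozygote 1. The mean log2 level of the list was 8.15 and 7.26 in homozygotes, against 7.15 in wild type 2. Of 25 markers above the filter, without Cd68 and Csf1r, 12 were higher in homozygote 2 than in wild type 2. None of 8 neutrophil, 8 mast cell or 5 B cell markers on the array passed, and 2 of 8 T and NK cell, 1 of 9 dendritic cell, 1 of 7 erythroid and 4 of 10 endothelial markers did. Platelet genes passed for 5 of 7 and summed to 940 to 951 in homozygotes and 745 to 910 elsewhere, with Pf4 alone separated in this way (lowest homozygote array 0.0085 log2 units above the highest other). Sex-linked genes also moved with genotype. The Y-linked gene Eif2s3y was at a log2 intensity of 8.76 and 8.61 in homozygotes, 1.24 and 1.70 in heterozygotes, 3.61 in wild type 1 and 8.37 in wild type 2, so the homozygotes and wild type 2 had the expression of male embryos. Embryo sex and genotype cannot be told apart between homozygotes and heterozygotes. In cultures like these, more cells of a type and more RNA per cell cannot be told apart either.

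Slfn2, the brightest of the 5 probe sets, had deposited intensities of 324 and 227 in homozygotes, 61.8 and 99.2 in heterozygotes, and 122 and 154 in wild type. After quantile normalization its log2 intensity was 8.13 ± 0.31 in homozygotes, 6.21 ± 0.33 in heterozygotes, with 7.19 ± 0.33 in wild-type cultures (SD, n = 2 each). With the homozygotes highest by choice, the heterozygotes, not the wild type, were lowest.

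Selplg had the same order of genotypes. Its intensities were 53.0 and 41.6 in homozygotes, 21.3 and 20.3 in heterozygotes, and 26.8 and 23.8 in wild type. The log2 levels were 5.62 ± 0.064 in homozygotes, 4.41 ± 0.11 in heterozygotes, with 4.83 ± 0.072 in wild type (SD, n = 2 each), so the arrays of a genotype lay close together.

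Lyl1 was the most even within genotypes. It had intensities of 52.0 and 43.9 in homozygotes, 25.04 and 29.5 in heterozygotes, and 20.05 and 19.3 in wild type. After normalization both homozygote arrays were near 5.65 (SD 0.0058, n = 2), against 4.76 ± 0.073 in heterozygotes, with 4.48 ± 0.010 in wild type (SD, n = 2). Below the homozygotes, which are highest by choice, the heterozygotes came before the wild type.

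Cd200r4 had intensities of 118 and 73.5 in homozygotes, 42.7 and 53.3 in heterozygotes, and 25.8 and 40.7 in wild type. Its log2 level was 6.60 ± 0.36 in homozygotes, 5.52 ± 0.089 in heterozygotes, with 5.18 ± 0.50 in wild type (SD, n = 2 each). Wild type 2, at 5.54, lay between the heterozygote arrays, at 5.46 and 5.59, so these neighbours in the order overlapped.

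Casp1, the dimmest of the 5, had intensities of 61.0 and 27.3 in homozygotes, 20.6 and 25.3 in heterozygotes, and 13.5 and 14.2 in wild type. Its log2 level was 5.44 ± 0.61 in homozygotes, 4.52 ± 0.12 in heterozygotes, with 4.01 ± 0.096 in wild type (SD, n = 2 each). Homozygote 1 stood apart from homozygote 2, which at 5.01 was 0.40 above the highest other array. The mean of Casp1 over the 6 arrays, 4.66, was just above the filter limit of 4.57. The heterozygote and wild-type means were both below that limit, so Casp1 passed through the homozygote arrays alone, and its tests rest on that.

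**Figure D1:**
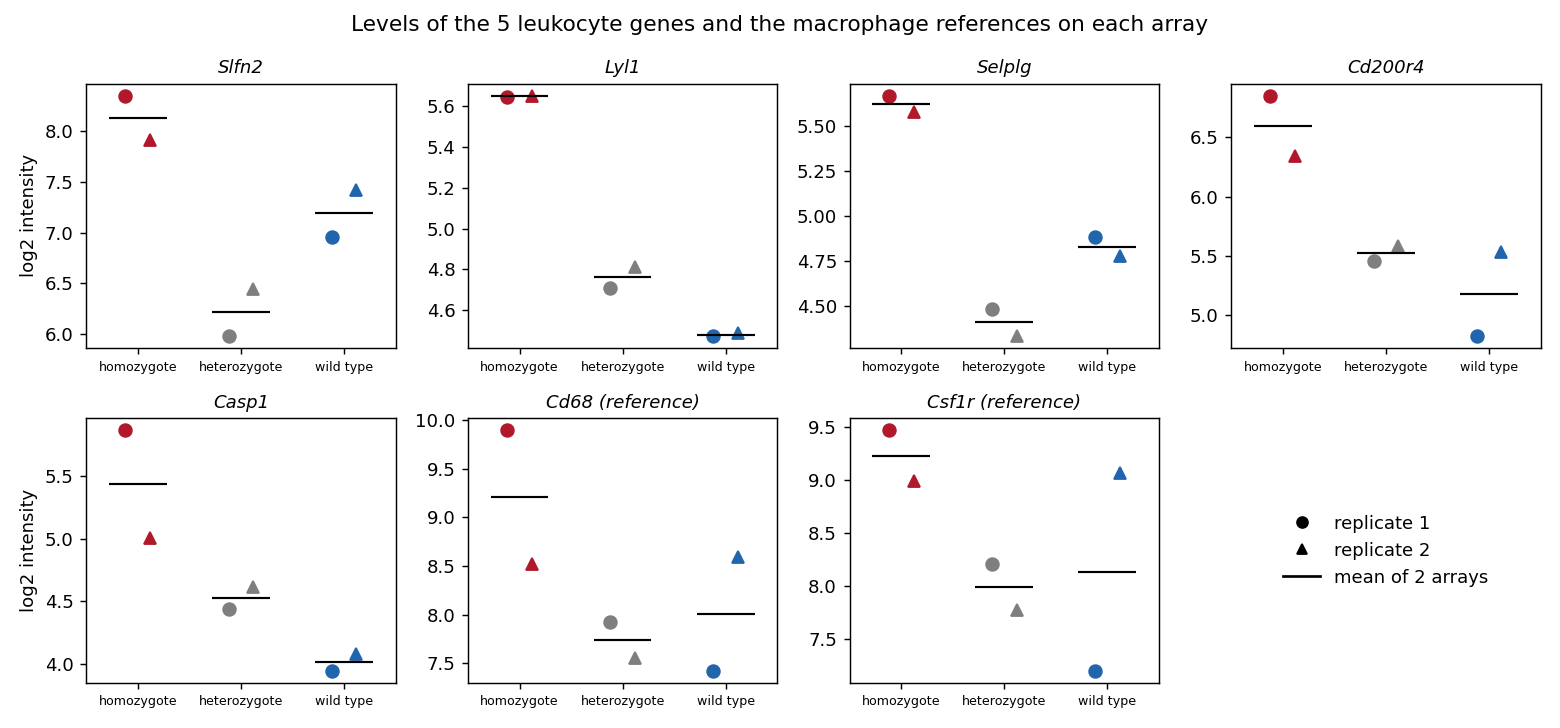
Log2 intensity (quantile normalized, vertical axis, a different range in each panel) of the 5 leukocyte genes and of the references Cd68 and Csf1r on each of the 6 arrays. Points are arrays, lines the means of 2 arrays, and homozygotes are left. The homozygote arrays lie above the other 4 for the 5 genes, while for Cd68 and Csf1r wild type 2 lies above homozygote 2.

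The separation that chose these genes was found for 736 of 22519 probe sets above the filter (3.27%), and nothing is read from it here. The lowest homozygote array exceeded the highest other array by 0.40 (Casp1), 0.49 (Slfn2), 0.70 (Selplg), 0.76 (Cd200r4) and 0.83 (Lyl1) log2 units. Of 73 listed leukocyte markers other than these genes 30 passed the filter, and 9 of the 30 were separated in the same way. The closest inside the limit were Cd53 (0.046), Ptprc (0.059), Tyrobp (0.073), Mpeg1 (0.077) and Lyz2 (0.12). The closest outside it were C1qc (-0.013), C1qb (-0.026), Laptm5 (-0.055), Csf1r (-0.077) and Ctss (-0.080).

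Homozygotes exceeded the mean of the other genotypes by a log2 difference of 1.43 (SE 0.26) for Slfn2, 1.25 (SE 0.28) for Cd200r4, 1.17 (SE 0.28) for Casp1, 1.03 (SE 0.18) for Lyl1 and 1.01 (SE 0.18) for Selplg, which are folds of 2.69, 2.38, 2.25, 2.04 and 2.01. No p is given, since the genes were chosen on this difference. Against single genotypes the 5 genes divided. Slfn2 and Selplg differed more from heterozygotes (1.92 and 1.22) than from wild type (0.94 and 0.79), whereas Lyl1, Cd200r4 and Casp1 differed more from wild type (1.17, 1.42 and 1.43) than from heterozygotes (0.89, 1.08 and 0.91). The size of each division is the difference of heterozygotes from wild type, whose test is given in the next paragraph. For homozygotes against the other genotypes, limma adjusted p-values under 0.05 were found for 0 of 22519 probe sets (0% called). Unadjusted ones were found for 560 (2.49%). Without homozygote 1 the Casp1 difference was 0.73.

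The difference of heterozygotes from wild type was not used to choose the genes. No member passed (0 of 5, as for all probe sets, 0% called by limma adjusted p), and at an unadjusted p under 0.05 there was 1 of 5, Slfn2, against 5.26% of all probe sets. Slfn2 was at 5.98 and 6.45 in heterozygotes, below 6.96 and 7.42 in wild type, a log2 difference of -0.98 (SE 0.30, limma adjusted p = 0.838). Selplg had the same sign, with -0.42 (SE 0.21, limma adjusted p = 0.838). The differences of Casp1 (0.51, SE 0.32), Cd200r4 (0.34, SE 0.32) and Lyl1 (0.28, SE 0.21) were above 0, with limma adjusted p-values of 0.840, 0.871 and 0.848, and Casp1 was in the test only through its level in homozygotes. The intervals (95%) ran from -1.71 to -0.25 for Slfn2, -0.94 to 0.09 for Selplg, -0.27 to 1.30 for Casp1, -0.44 to 1.12 for Cd200r4 and -0.22 to 0.78 for Lyl1. For Cd200r4 the difference was -0.013 without wild type 1 and 0.70 without wild type 2. A covariate for embryo sex, the mean score of 4 sex-linked genes, gave 0.94 for Cd200r4 and -0.59 for Slfn2. That sex score was -0.61 in wild type 1 and 0.85 in wild type 2, and it varied less within the other genotypes.

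Macrophage content was read from Cd68 and Csf1r. Cd68 had log2 levels of 9.89 and 8.52 in homozygotes, 7.92 and 7.56 in heterozygotes, and 7.42 and 8.60 in wild type. Csf1r, by its brightest of 3 probe sets, was at 9.47 and 8.99 in homozygotes, 8.21 and 7.77 in heterozygotes, and 7.20 and 9.06 in wild type. Its other probe sets differed between homozygotes and the other genotypes by 0.80 and 0.25, against 1.17 for the brightest. Both references were high in wild type 2, which overlapped the homozygotes, and low in wild type 1. Their mean, used as the macrophage score, was 9.68 and 8.75 in homozygotes, 8.07 and 7.66 in heterozygotes, and 7.31 and 8.83 in wild type.

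Cultures of the same genotype were compared along this score, which leaves out the mean difference of the homozygotes. The comparison is still not free of the choice of genes. That choice required homozygote 2 (score 8.75) to lie above wild type 2 (8.83), so genes high in wild type 2 were less likely to be chosen. Among 25 macrophage markers, 12 were higher in homozygote 2 than in wild type 2, with a median difference of -0.013. The score was 1.52 log2 units higher in wild type 2 than in wild type 1, and 0.93 higher in homozygote 1 than in homozygote 2. Lyl1 differed by 0.015 and -0.0082 between the same arrays, and Selplg by -0.10 and 0.090, so these genes differed little where the score moved. Both were dim in wild type. Lyl1 intensities of 20.05 and 19.3 lay below the array medians of 23.7 and 22.6, and Selplg, at 26.8 and 23.8, lay just above them. Whether probe sets this dim could move with the score was not tested. Cd200r4 differed by 0.71 and 0.50 and Slfn2 by 0.46 and 0.44, both in the direction of the score. Casp1 differed by 0.14 between the wild-type arrays and by 0.86 between the homozygote arrays. Between the heterozygote arrays the score differed by 0.41 (heterozygote 1 over 2), and of the 5 genes only Selplg, at 0.15, had the same sign there.

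**Figure D2:**
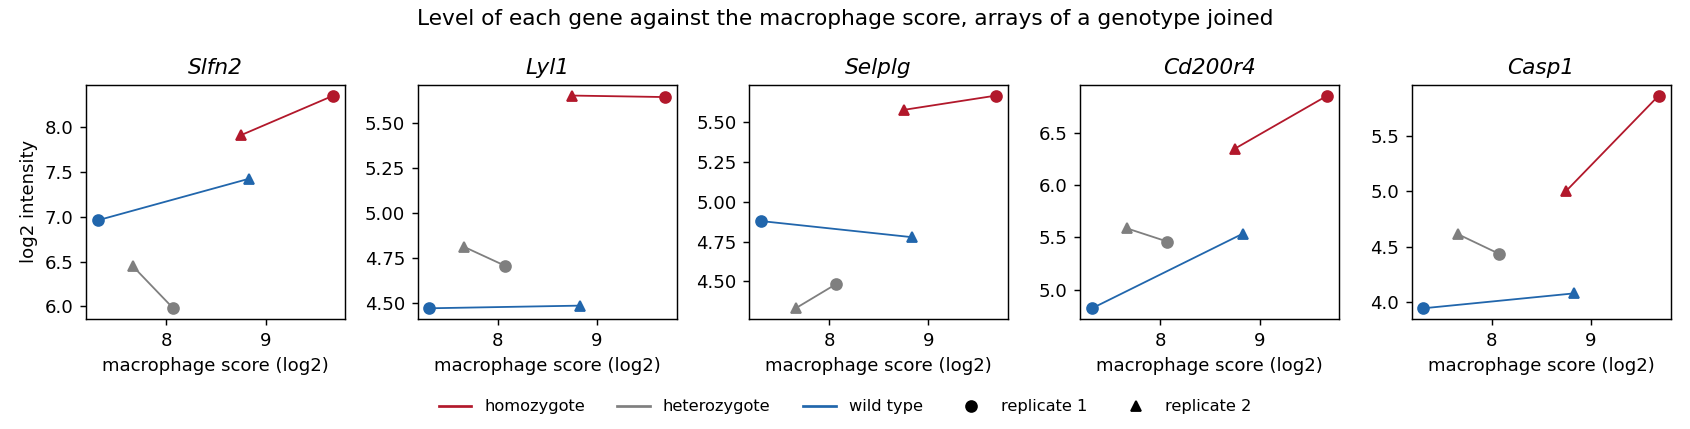
Log2 intensity of each of the 5 genes (vertical axis, a different range in each panel) against the macrophage score, the mean log2 level of Cd68 and Csf1r (horizontal axis). Arrays of a genotype are joined. For Lyl1 and Selplg the homozygote and wild-type lines are nearly flat, while for Cd200r4 both lines climb with the score.

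A limma fit with the 3 genotypes and the score gave the change of each gene per log2 unit of score among arrays of the same genotype. The slope was 0.45 (SE 0.18) for Cd200r4, 0.28 (SE 0.24) for Casp1, 0.28 (SE 0.22) for Slfn2, -0.0027 (SE 0.17) for Selplg and -0.0080 (SE 0.17) for Lyl1. The limma adjusted p-values were 0.490, 0.767, 0.742, 0.998 and 0.994. None passed, nor did any of the 22519 probe sets (0% called), and at an unadjusted p under 0.05 there were 0 of 5, against 10.2% of all probe sets. Casp1 was among the 5 tested only through its level in homozygotes. The median slope of the 5 genes was 0.28, against -0.0094 over all probe sets. Cd200r4 came closest, with an unadjusted p of 0.0504.

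The median slope of the macrophage markers was above the slope of each of the 5 genes, although Clec7a (0.30) and Cd14 (0.40) lay below Cd200r4. Leaving out Cd68 and Csf1r, 25 of 25 markers above the filter had a slope above 0, against 48.6% of all probe sets, with a median of 0.93 and a range from 0.30 (Clec7a) to 1.56 (Pld4). None passed the limma threshold either, and 18 of 25 had an unadjusted p under 0.05. The brightest were lysozyme, Lyz2 (0.83, SE 0.19), the lysosomal protease Ctss (0.97, SE 0.37) and the complement subunit C1qb (1.00, SE 0.17). The upper ends of the 95% intervals were 0.41 for Lyl1, 0.42 for Selplg, 0.82 for Slfn2, 0.87 for Casp1 and 0.90 for Cd200r4, each below the marker median. The difference between a gene's slope and those of the markers was not tested, and the genes and markers were not chosen alike. The 5 genes had to be higher in homozygote 2 than in wild type 2, which disfavours steep slopes, and the markers did not. Lyl1, Selplg and Casp1 were also dim, with mean log2 levels of 4.96, 4.95 and 4.66 against the filter limit of 4.57.

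The slopes rest mainly on the wild-type cultures, which held 69.2% of the variation of the score within genotypes, against 25.9% in homozygotes and 4.91% in heterozygotes. The wild-type arrays also differed in embryo sex (sex score -0.61 and 0.85), so sex and the macrophage score cannot be told apart between them. The part of sex in the slopes was not tested. The Casp1 slope was 0.72 without wild type 1 or wild type 2 and 0.055 without homozygote 1 or homozygote 2. With no genotype terms, where the homozygote difference enters, the slopes were 0.80 for Slfn2, 0.73 for Cd200r4, 0.61 for Casp1, 0.46 for Selplg and 0.43 for Lyl1, and none passed.

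**Figure D3:**
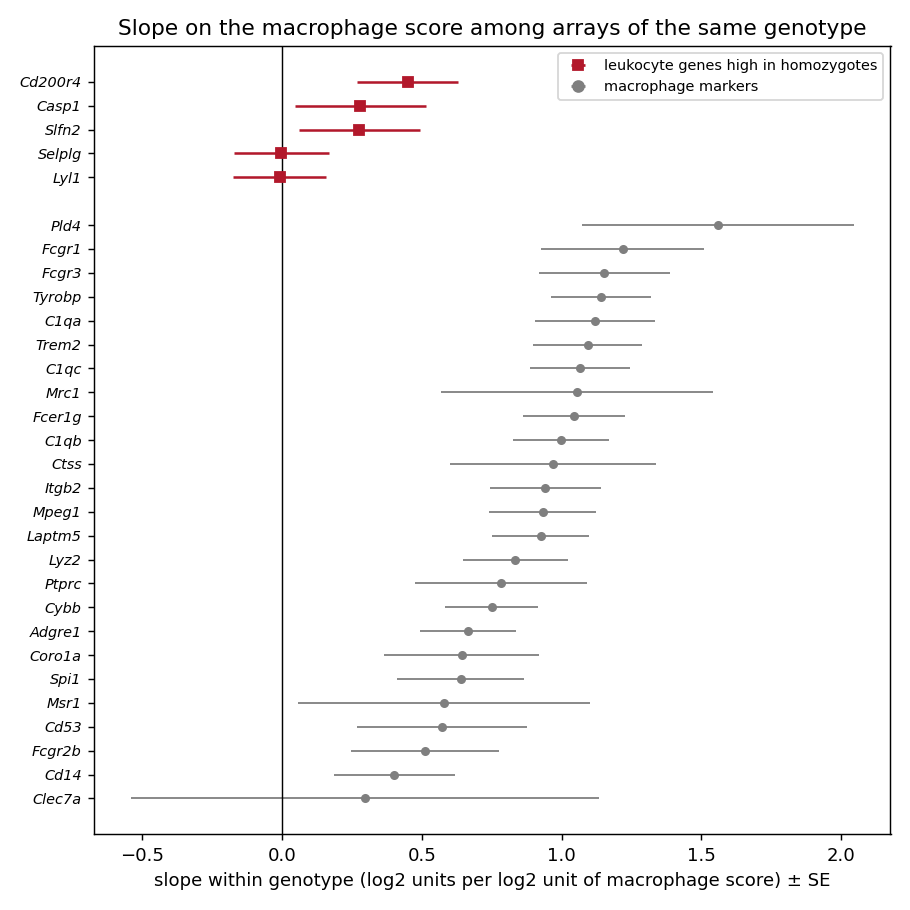
Slope within genotype (horizontal axis, log2 units per log2 unit of macrophage score, ± SE, 6 arrays) of the 5 leukocyte genes (red squares) and of 25 macrophage markers (grey circles). Lyl1 and Selplg lie at 0, Cd200r4 at 0.45, and the median of the markers is 0.93.

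Homozygote 2 and wild type 2 had like scores, 8.75 and 8.83, and both had the sex-linked expression of male embryos. Homozygote 2 exceeded wild type 2 by 1.16 (Lyl1), 0.93 (Casp1), 0.81 (Cd200r4), 0.80 (Selplg) and 0.49 (Slfn2). The direction of these 5 differences was fixed by the choice of genes, so only their sizes are given and nothing is read from them.

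With the score as a covariate, the homozygote difference was 1.08 (SE 0.36) for Slfn2, 1.04 (SE 0.28) for Lyl1, 1.01 (SE 0.29) for Selplg, 0.82 (SE 0.39) for Casp1 and 0.69 (SE 0.30) for Cd200r4. The genes were chosen on that difference, and these values are descriptions. The same fit took the median difference of the 25 macrophage markers to -0.00012, against 1.24 without the score. Lyl1 and Selplg had differences of the same size with and without the score, and that of Cd200r4 was lower with it (0.69, against 1.25 without it). The Casp1 value depended on single arrays, with 0.046 without wild type 2, 0.53 without wild type 1 and 1.503 without homozygote 2. A covariate for embryo sex gave 1.09 (SE 0.36) for Selplg, 1.02 (SE 0.36) for Lyl1, 0.97 (SE 0.54) for Casp1, 0.96 (SE 0.46) for Slfn2 and 0.53 (SE 0.41) for Cd200r4, and the marker median there was -0.20. Within genotypes the sex score differed mainly between wild type 1 (-0.61) and wild type 2 (0.85), which also differed in macrophage score (7.31 and 8.83). It was 0.999 and 0.855 in homozygotes and -1.02 and -1.07 in heterozygotes. In these values embryo sex and macrophage content therefore cannot be told apart.

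**Figure D4:**
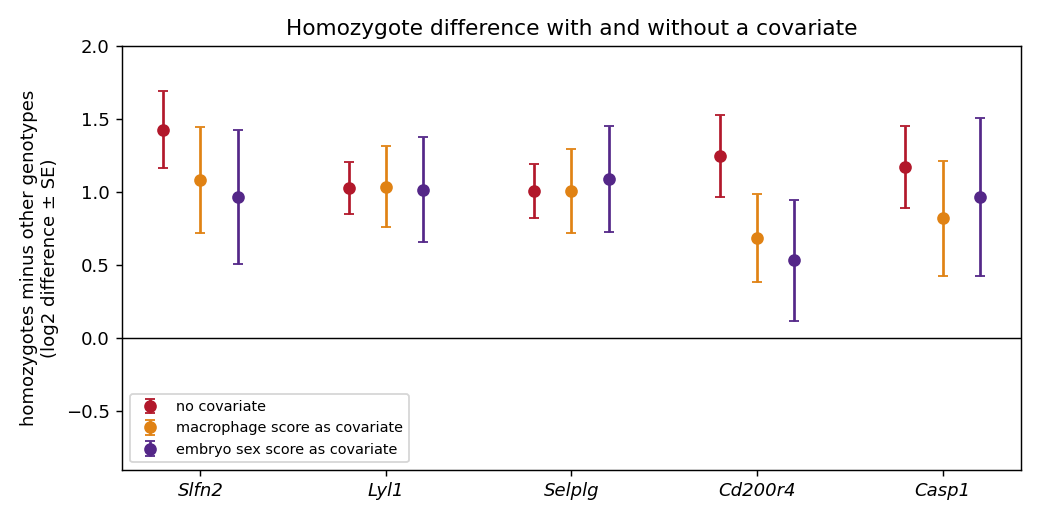
Log2 difference of homozygotes from the mean of the other genotypes (vertical axis, ± SE, 6 arrays) for the 5 genes without a covariate, with the macrophage score and with a score of sex-linked genes. Lyl1 and Selplg stay near 1.0 in the 3 fits, and Cd200r4 is at 1.25, 0.69 and 0.53. Within genotypes the sex score differs mainly between the wild-type arrays, which also differ in macrophage score.

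Among themselves, the genes varied alike in subgroups, as a description over the same 6 arrays, whose homozygote arrays are high by choice. Cd200r4 and Casp1 had the highest correlation (Pearson r = 0.95), followed by Cd200r4 with Lyl1 (0.92) and Slfn2 with Selplg (0.92), and the lowest was 0.63, between Slfn2 and Casp1. The 10 genes most like the mean standardized level of the 5, out of 11011 compared over 6 arrays, had r from 0.94 to 0.99. They were Cep95, Rbm14, Btf3l4, Ncf4, Spcs2, Tmem30a, Helz2, Myo19, Papolg and Rac1. Ncf4, a subunit of the phagocyte NADPH oxidase, had the largest homozygote difference of these (0.87, SE 0.25), with 6.20 and 5.56 in homozygotes, 5.04 and 5.09 in heterozygotes, and 4.79 and 5.14 in wild type. Helz2, an interferon-induced helicase, differed by 0.69 and the small GTPase Rac1 by 0.085. Cd68 (r = 0.86) and Csf1r (r = 0.77) came 78th and 224th.

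The relatives and partners of each gene were given by lists, chosen with earlier results of these data known. In the schlafen family, 8 of 9 genes had a probe set and only Slfn2 and Slfn9 passed the filter. Slfn9 was at 6.91 and 4.96 in homozygotes, 5.69 and 5.39 in heterozygotes, and 4.54 and 4.51 in wild type (difference 0.90, SE 0.51, limma adjusted p = 1), so homozygote 2 lay below both heterozygotes. Of the 6 below the filter, Slfn8 and Slfn3, named here after their values were seen, also had both homozygote arrays highest. This order was found for 3.27% of probe sets above the filter, and its share below the filter was not counted. Slfn8 was at 5.50 and 4.85 in homozygotes, 3.66 and 2.48 in heterozygotes, and 4.75 and 3.06 in wild type. Slfn3 was at 2.64 and 2.86 in homozygotes, 1.75 and 1.21 in heterozygotes, and 1.02 and 1.12 in wild type, levels near the bottom of the arrays.

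Of 12 partners of Lyl1 above the filter, from the complex that Lyl1 and Tal1 form with E proteins, Lmo2, Ldb1 and blood transcription factors, 5 were higher and 7 lower in homozygotes, with a median of -0.069 against -0.0039 over all probe sets. The brightest were the E proteins Tcf12 (-0.090, SE 0.21) and Tcf4 (0.11, SE 0.33) and the cofactor Ldb1 (-0.19, SE 0.20), each with limma adjusted p = 1. The corepressor Cbfa2t3, named here after its values were seen, was the only one with an unadjusted p under 0.05 (2.49% of all probe sets) and was lower, at -1.53 (SE 0.36, limma adjusted p = 1). Tal1 itself was below the filter.

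For the selectin ligand pathway around PSGL-1, 6 of 11 genes above the filter were higher and 5 lower, with a median of 0.036 and none at an unadjusted p under 0.05. Cd44, also a selectin ligand when glycosylated, differed by -0.20 (SE 0.38), the Golgi glycoprotein Glg1 by -0.031 (SE 0.23) and the galactosyltransferase B4galt1 by 0.13 (SE 0.21). The fucosyltransferase Fut7, which completes the selectin-binding glycan on PSGL-1 in leukocytes, was below the filter. None of the 11 had both homozygote arrays above the other 4, the order by which Selplg was picked, against 3.27% of all probe sets above the filter.

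Around Cd200r4, its adaptor Tyrobp was at 10.29 and 9.06 in homozygotes, 8.40 and 8.17 in heterozygotes, and 7.29 and 8.98 in wild type (difference 1.46, SE 0.54, limma adjusted p = 1). Tyrobp is also a macrophage marker, and its slope on the score was 1.14 (SE 0.18), against 0.45 for Cd200r4. The ligand Cd200 differed by -0.12 (SE 0.35) and the signalling adaptor Dok1 by -0.31 (SE 0.35). The inhibitory receptor Cd200r1, named here after its values were seen, was below the filter, with 6.80 in homozygote 1 and 4.40 in homozygote 2, against 4.29 and 4.44 in heterozygotes and 1.71 and 3.15 in wild type.

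Inflammasome genes other than Casp1 were higher in homozygotes for 8 of 8 above the filter, against 49.3% of all probe sets, with a median of 0.38 and 0 called (1 of 8 at an unadjusted p under 0.05). Casp4, a related inflammatory caspase named here after its values were seen, was the 1 gene, at 7.29 and 6.98 in homozygotes, 6.53 and 6.83 in heterozygotes, and 6.47 and 6.07 in wild type (0.66, SE 0.23, limma adjusted p = 1), and its slope on the score was -0.13 (SE 0.21). The brightest were Casp12 (0.25, SE 0.39), the adaptor Pycard (0.64, SE 0.50) and the receptor Il1r1 (0.77, SE 0.69). Their slopes on the score were 0.76, 1.04 and 1.37, against 0.28 for Casp1. Below the filter, the sensor Nlrp3, also named after its values were seen, had both homozygote arrays highest, at 5.21 and 5.21, against 2.19 and 4.58 in heterozygotes and 4.90 and 4.90 in wild type. The share of probe sets below the filter with this order was not counted. Cross-hybridization between relatives of the schlafen, CD200 receptor and caspase families was not tested.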

How the data were processed

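Total RNA of 6 cultures was measured on Affymetrix arrays of 45101 probe sets. The authors deposited linear intensities, 1 column per array, with array medians of 21.9 to 27.3. How probes were summarised and scaled is stated neither in the labels nor in the file header. Values were taken as log2(deposited intensity + 1.78), the pseudocount being the 10th percentile, and quantile normalized, since array medians spanned 0.29 log2 units. Fold changes on this scale understate changes of dim probe sets. After removal of 64 control probe sets, the upper 50% were tested (22519, mean log2 intensity of at least 4.57). Symbols came from a platform annotation, updated to GRCm38.p6. Probe sets with 1 symbol numbered 34945, with several 932 and with none 9160. A gene is given by its probe set with the highest mean.

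Tests used limma 3.58.1 in R 4.3.3 (3 genotype means, 3 residual and 3.28 prior degrees of freedom, or 2 and 3.57 with the macrophage score), with Benjamini-Hochberg adjustment over all tested probe sets and a threshold of 0.05. Scripts were tested on simulated data. Named were the 5 genes, the references, the 3 brightest genes of each list and of the macrophage markers, the 10 most similar genes and the markers nearest the separation limit. The genes and lists were chosen with earlier results of these data known. Alternatives changed the normalization, pseudocount, filter, probe set summary, score, comparison group, sex and replicate terms, and left out each array in turn.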

Additional observations from a re-analysis of the deposited data

How the results depend on the processing

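The sign of the homozygote difference was largely fixed by the choice of the genes, so only its sizes are given. Under the alternatives that kept the genes above the filter it ran from 0.53 (Cd200r4 with the covariate for embryo sex) to 1.92 (Slfn2 against heterozygotes alone). With the score as a covariate it ran from 0.046 to 1.503 (both Casp1). For Lyl1, Selplg and Casp1 a pseudocount of 16 gave 0.73, 0.71 and 0.79. The upper 25% of probe sets held Slfn2 alone of the 5. No gene of the 5 passed an adjusted p under 0.05 for heterozygotes against wild type (lowest 0.383) or for the slope (lowest 0.412) under any alternative. Slopes near 0 changed sign. For Lyl1 the slope was 0.040 without quantile normalization, 0.00066 with arrays scaled to the same median, 0.43 with no genotype terms, and -0.049 to 0.0048 with single arrays left out. For Selplg it was 0.036 without quantile normalization, 0.00018 with a pseudocount of 16, 0.018 with Cd68 alone as the score, 0.46 with no genotype terms, and -0.038 to 0.14 with single arrays left out. The heterozygote difference of Cd200r4 ran from -0.013 to 0.70 with single arrays left out. The cause was not tested.

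Counts of probe sets called were 0 in each comparison. The slope gave 7 with arrays scaled to the same median, 1 (Sned1) with probe sets of a gene averaged, and 0 to 3 with single arrays left out (Sned1, Scara5 and Olfml1 without heterozygote 1 or 2, a probe set with no symbol without homozygote 1 or 2). Leaving out single arrays gave 0 to 2 for homozygotes against the other genotypes (Eif2s3y and a probe set with no symbol, without wild type 2) and 0 to 1 for heterozygotes against wild type (Eif2s3y, without wild type 1). Replicate numbers are shared between genotypes but mark different embryos, and deviations of same-numbered arrays correlated at -0.14, -0.14 and -0.36. The replicate block called 10 probe sets for the slope and 0 in the other comparisons, and put the Selplg slope at 0.0036.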
